A study of Mus musculus with 6 samples.

Results

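Neonatal mouse cardiomyocytes given the growth factor BMP2 together with the inhibitor dorsomorphin were compared with the same kind of cells given only phosphate-buffered saline (PBS), a buffer. The comparison takes in 4 of the 6 libraries of the series, 2 labelled BMP2+DM and 2 labelled PBS, and every gene symbol of the count tables. The remaining 2 libraries, from cells given BMP2 alone, were set beside it wherever the effect of adding dorsomorphin had to be told from the effect of BMP2. All 3 groups were wild-type primary cardiomyocytes taken from the heart, and polyadenylated RNA was sequenced from each. Nothing in the labels says whether the 2 libraries of a group were made from separate cultures, so p-values measure only the spread between these libraries, which may be technical. The labels state neither the dose nor the length of treatment. No group had dorsomorphin without BMP2, so in BMP2+DM against PBS the effects of the 2 agents cannot be told apart. BMP2+DM against BMP2 alone is the test of what dorsomorphin added.

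BMP2 is a secreted ligand of the TGF-beta superfamily. It brings together type I and type II receptor kinases at the cell surface, the type I receptor phosphorylates SMAD1, SMAD5 and SMAD9, and these enter the nucleus with SMAD4 and switch on target genes such as the Id family of transcriptional inhibitors and the inhibitory SMADs, Smad6 and Smad7, which damp the pathway in a feedback loop. In the heart the pathway helps to specify cardiac tissue and to form the valves and chambers. Dorsomorphin is a small molecule that blocks the kinase activity of BMP type I receptors. It is also known to inhibit AMPK, the energy-sensing kinase, and the VEGF receptor kinase encoded by Kdr, so it is not selective for BMP signalling.

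Counts assigned to genes ran from 10106667 to 14366042 per library over the 4 libraries compared, and levels are given below as CPM, counts per 1000000 gene counts of a library after TMM scaling. Genes that define cardiomyocytes were present in every library: Myh6, the alpha myosin heavy chain, stood at 13994 and 13912 CPM in PBS and 13081 and 13074 CPM in BMP2+DM. Markers of other heart cells were present as well. Summed over all 14 fibroblast markers of the list, tested or not, the level was 8153 and 8637 CPM in PBS and 7937 and 8282 CPM in BMP2+DM, and over 14 endothelial markers it was 722.1 and 716.4 CPM in PBS and 432.9 and 480.4 CPM in BMP2+DM. Col1a1 and Col3a1 made up most of the fibroblast sum and moved in opposite directions (log2 differences -0.72 and 1.06). The level of that sum therefore does not describe the other fibroblast markers. Of 13 tested fibroblast markers 8 fell and 3 rose. In the endothelial sum Eng alone stood at 290.3 and 278 CPM in PBS and 181 and 211 CPM in BMP2+DM. Eng is also counted below among BMP receptors, and the endothelial sum alone does not describe the other endothelial markers. In bulk RNA fewer cells of a type and less RNA per cell cannot be told apart. The 2 ribosomal-repeat gene models Gm42418 and AY036118 took 1.31% of gene counts in PBS replicate 1 and 2.1% in BMP2 replicate 1, against 0.0702% to 0.0928% in the other 4 libraries. These 2 gene models were called lower in BMP2+DM, but without PBS replicate 1 the log2 differences turned to 0.11 for Gm42418 and 0.03 for AY036118. Counts led with below were therefore also made without both high-repeat libraries, and the result is given where it moved a count by more than 1.5 times; PBS is then a lone library that is assumed to vary like the BMP2+DM pair.

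Of 14378 genes with enough counts to test, 3007 differed between BMP2+DM and PBS at an adjusted p under 0.05 (edgeR quasi-likelihood F test, Benjamini-Hochberg adjustment over all tested genes). They divided into 1349 that were higher in BMP2+DM, 9.38% of the genes tested, and 1658 that were lower, 11.5%. The larger changes were mostly falls: 435 genes fell and 161 rose by at least 2-fold, and 152 fell and 47 rose by at least 4-fold. Without PBS replicate 1 the test called 829 higher and 1143 lower, without PBS replicate 2 it called 742 and 1085, and without both high-repeat libraries 533 and 855. The median log2 difference over all tested genes was 0.0069. Against BMP2 alone, BMP2+DM was higher at 616 genes (4.28% of those tested) and lower at 639 (4.44%), and BMP2 alone against PBS was higher at 942 (6.55%) and lower at 1335 (9.29%). These comparisons share libraries, so they are set side by side below and no overlap is drawn from them.

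**Figure D1:**
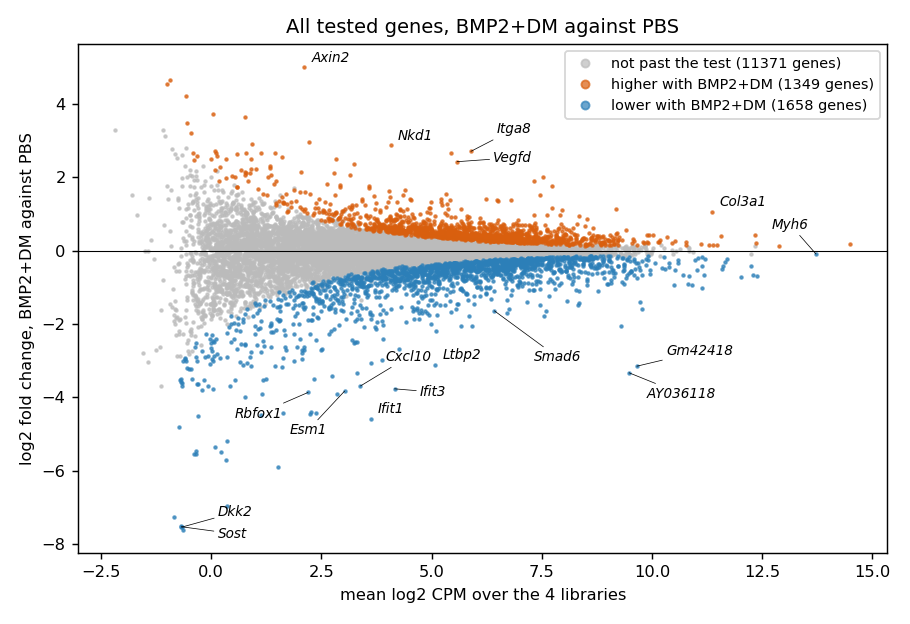
Each point is 1 of 14378 tested genes, with its mean log2 CPM over the BMP2+DM and PBS libraries on the x axis and its log2 difference, BMP2+DM minus PBS, on the y axis. Coloured points passed an adjusted p under 0.05, 1349 above zero and 1658 below, and the lowest genes on the y axis had no count in BMP2+DM, so their plotted size depends on the model's prior count.

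Id1, Id2, Id3 and the inhibitory SMADs Smad6 and Smad7, well known targets of the BMP-SMAD pathway, were lower in BMP2+DM than in PBS, although BMP2 had been added. Of 22 tested members of a list of SMAD targets and feedback genes, 10 fell (45.5%) and 4 rose, with a median log2 difference of -0.28. Smad6, the inhibitory SMAD that blocks BMP receptors, was counted at 141 and 163 CPM in PBS, 171 and 201 CPM in BMP2 and 44.8 and 52.5 CPM in BMP2+DM. Both BMP2+DM libraries lay below every other library, and the difference from PBS was -1.64 ± 0.10 (SE) on the log2 scale, 3.12-fold lower (adjusted p = 1.8e-09). Smad7, which damps both BMP and TGF-beta receptors, read 96.5 and 108 CPM in PBS, 104 and 103 CPM in BMP2 and 39.5 and 35.6 CPM in BMP2+DM, a fall of 2.72-fold against PBS (adjusted p = 5.26e-09). BMP2 alone had not moved it detectably from PBS (0.01 ± 0.09), and BMP2+DM differed from BMP2 by -1.46 ± 0.10 on the log2 scale.

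Id1, Id2 and Id3, whose products hold back basic helix-loop-helix factors and differentiation, also fell. Id1 was at 55.5 and 51.3 CPM in PBS, 46.6 and 49.7 CPM in BMP2 and 16.9 and 16.1 CPM in BMP2+DM, 3.24-fold below PBS (log2 difference -1.69 ± 0.13, adjusted p = 1.99e-08). Id3 went from 199 and 197 CPM in PBS to 107 and 106 CPM in BMP2+DM, 1.86-fold lower (adjusted p = 2.55e-08), with 211 and 233 CPM in BMP2. Id2 was the Id gene that BMP2 alone raised, from 64.6 and 61.3 to 94.6 and 92.1 CPM, and in BMP2+DM it stood at 35.4 and 28.6 CPM, below PBS as well as below BMP2 (-0.98 ± 0.11 and -1.54 ± 0.11 on the log2 scale). For each of these 3 genes the BMP2+DM libraries did not overlap with either other group. Each PBS or BMP2+DM library was left out in turn. The log2 difference from PBS then ranged from -1.75 to -1.64 for Id1, -1.14 to -0.83 for Id2 and -0.901 to -0.885 for Id3. Differences from BMP2 alone were not refitted in this way. The fourth Id gene, Id4, was at 6.14 and 6.87 CPM in PBS, 2.91 and 4.58 CPM in BMP2 and 10.3 and 8.25 CPM in BMP2+DM, not called against PBS (0.51 ± 0.27, adjusted p = 0.199) and called higher than in BMP2 (1.31 ± 0.29, adjusted p = 0.00671).

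Smad9, a receptor-activated SMAD that is itself a BMP target, and Tbx20, a cardiac transcription factor, rose with BMP2 alone and came back past the PBS level when dorsomorphin was present. Smad9 read 12.1 and 11.7 CPM in PBS, 19.9 and 18.3 CPM in BMP2 and 4.93 and 5.05 CPM in BMP2+DM (-1.25 ± 0.21 against PBS, adjusted p = 0.000216). Tbx20 read 785 and 803 CPM, 1405 and 1433 CPM and 680.1 and 632 CPM in the same order, so BMP2+DM was 1.21-fold below PBS (-0.28 ± 0.05, adjusted p = 0.00107). Atoh8, a helix-loop-helix factor, fell from 62.8 and 65.3 CPM to 36 and 33.6 CPM (-0.88 ± 0.10, adjusted p = 6.55e-06), with 65 and 63.8 CPM in BMP2. The ubiquitin ligases Smurf1 and Smurf2, which mark SMADs and receptors for degradation, fell too, Smurf2 from 132 and 136 to 93.6 and 94.1 CPM (-0.51 ± 0.08) and Smurf1 from 88.8 and 91.7 to 65.3 and 60.1 CPM (-0.53 ± 0.09). BMP2 alone lay between for both, and neither differed between BMP2+DM and BMP2 at the threshold (adjusted p = 0.146 for Smurf2 and 0.0755 for Smurf1).

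Bambi, a pseudoreceptor that damps BMP signalling, is a SMAD target that ended near its PBS level. It stood at 40.6 and 34.6 CPM in PBS, 59.2 and 59.1 CPM in BMP2 and 43.9 and 37.2 CPM in BMP2+DM, lower than BMP2 (-0.55 ± 0.12, adjusted p = 0.00759) and not called against PBS (0.11 ± 0.12, adjusted p = 0.605). Follistatin (Fst), a secreted antagonist of activins and some BMPs, stayed above PBS: 10.8 and 9.48 CPM in PBS, 47.5 and 46.2 CPM in BMP2 and 27.5 and 23 CPM in BMP2+DM. It was 2.48-fold higher than PBS (adjusted p = 6.3e-06) and lower than BMP2 alone (-0.89 ± 0.14, adjusted p = 0.000385). Of the other 3 risers, the cell-cycle inhibitor Cdkn1a went from 303 and 313 to 382 and 385 CPM. The iron exporter gene Slc40a1 (12.1 and 14.9 to 23 and 18.1 CPM) was no longer called without PBS replicate 1 or without BMP2+DM replicate 1, and Msx2, a homeobox gene at 0.571 and 0.348 CPM in PBS and 0.967 and 3.69 CPM in BMP2+DM, kept its call in 1 of the 4 fits that leave out a library of these groups. Only 2 risers were counted without PBS replicate 1, and 2 without both high-repeat libraries.

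**Figure D2:**
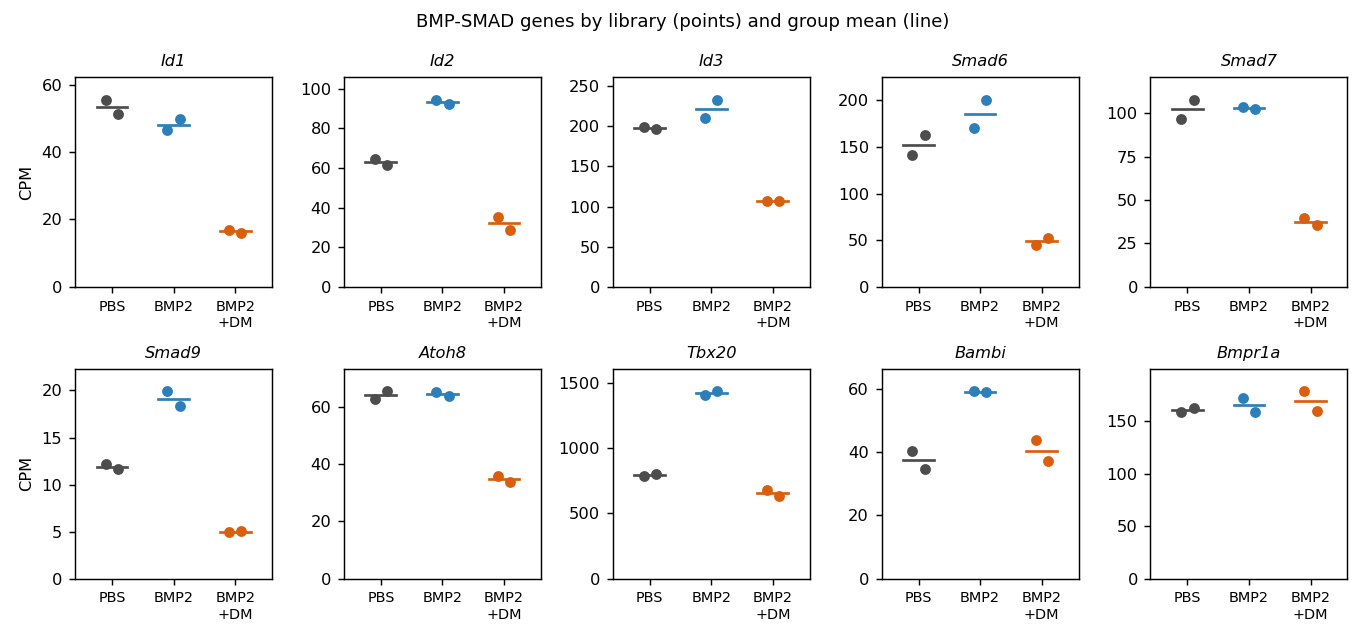
CPM of 10 genes of the BMP-SMAD pathway (y axis, from 0, 1 panel per gene) in PBS, BMP2 and BMP2+DM; points are libraries and lines are group means. Smad6, Smad7, Id1, Id2, Id3, Smad9 and Atoh8 sit lowest in BMP2+DM, Bambi is near its PBS level in BMP2+DM, and the receptor gene Bmpr1a is at a similar height in all 6 libraries.

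The pathway's own parts were called lower or not at all. Of 23 tested ligands, receptors and SMADs, 5 fell (21.7%, against 11.5% of all tested genes) and 0 rose; without PBS replicate 2 the test called 3 of them. Bmpr1a, the type I receptor that BMP2 binds, was at 159 and 162 CPM in PBS and 178 and 159.8 CPM in BMP2+DM (0.07 ± 0.07, adjusted p = 0.516). The BMP-activated SMADs were not called either: Smad1 read 36.3 and 36.1 and 32.7 and 34.8 CPM (-0.10 ± 0.12) and Smad5 109 and 97.5 and 97.4 and 94.5 CPM (-0.11 ± 0.08). The members that fell were endoglin (Eng), a co-receptor of endothelial cells (290.3 and 278 to 181 and 211 CPM, -0.53 ± 0.07), the TGF-beta effector Smad3 (70.1 and 77.3 to 43 and 44.7 CPM, -0.75 ± 0.11), the ligand gene Gdf6 (105 and 121 to 67.9 and 80 CPM), the type I receptor gene Acvr1 (48.7 and 55.3 to 37.4 and 37.3 CPM) and the ligand gene Bmp6 (38.2 and 38.4 to 25.7 and 24.5 CPM). Acvr1 lost its call without PBS replicate 2, and Bmp6 kept its call in 1 of the 4 leave-one-out fits. Bmp4, a ligand of the same receptors, was lower in BMP2 alone and not in BMP2+DM: 37.8 and 33.2 CPM in PBS, 17.9 and 19.9 CPM in BMP2 and 31.5 and 36.5 CPM in BMP2+DM (0.85 ± 0.14 against BMP2, adjusted p = 0.0009). The transcript of Bmp2 itself was at 3.5 and 4.44 CPM in PBS and 3 and 2.62 CPM in BMP2+DM and was not called (-0.49 ± 0.35).

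Secreted antagonists were divided. Of 10 tested, Fst rose (10%, against 9.38% of all tested genes) and 3 fell (30%, against 11.5%), with a median log2 difference of -0.12. Fstl1, a follistatin-like protein that heart cells secrete, went from 2526 and 2511 CPM in PBS to 1758 and 1722 CPM in BMP2+DM (-0.53 ± 0.05, adjusted p = 1.79e-07). Fstl3, which binds activin and myostatin, went from 43.6 and 40.4 to 13.3 and 18.5 CPM (-1.40 ± 0.16), although 47.3% of its exon length overlaps Prss57 and reads of that overlap may not be assigned. Sost, encoding sclerostin, an antagonist of Wnt co-receptors, had 52 counts over the PBS libraries and 0 in BMP2+DM, at least 14-fold lower with a floor of 3 counts over the group. BMP2 alone had 3 and 1 counts of Sost and was already called lower than PBS, and BMP2+DM against BMP2 was not called. The median does not depend on Sost, which is the lowest member at that bound too.

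SMAD proteins are known to bind GC-rich boxes, and the promoters of the list were searched for the letters of such a box. Of the 22 tested SMAD targets 13 matched a promoter in the RefSeq table (GRCm38.p6, the build also called mm10), and 6 of these, 46.2%, held the motif GGCGCC in the 300 bases from 250 before the transcription start to 50 after it, searched on both strands. The same letters were present for 24.2% of all tested genes with an entry and in 11.9% of all promoters in the table. For lists and tested genes, here and below, a gene counted if any of its promoters held the motif. The share over all promoters counts each promoter, so these 2 backgrounds are unlike measures. The 250 bases before the start of 2 members that fell follow, 5′ to 3′ on the gene's strand, with the motif in capitals. They are shown because these genes fell below PBS: Id2 lies on the minus strand at chr12:25096093-25096342 and Smad9 on the plus strand at chr3:54755332-54755581.
Id2: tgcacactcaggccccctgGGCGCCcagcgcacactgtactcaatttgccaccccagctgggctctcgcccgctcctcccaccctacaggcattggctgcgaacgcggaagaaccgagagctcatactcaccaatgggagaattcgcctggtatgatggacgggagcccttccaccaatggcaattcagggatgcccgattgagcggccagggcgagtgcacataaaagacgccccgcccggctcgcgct
Smad9: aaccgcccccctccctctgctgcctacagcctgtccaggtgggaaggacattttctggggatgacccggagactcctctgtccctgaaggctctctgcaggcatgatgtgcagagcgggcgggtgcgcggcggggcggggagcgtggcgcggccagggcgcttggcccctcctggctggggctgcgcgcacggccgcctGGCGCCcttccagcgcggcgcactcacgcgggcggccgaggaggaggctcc
In Id2 the match starts 231 bases before the transcription start, and in Smad9 it starts 51 bases before it. Smurf2 holds the motif too, and so do Id4 and Grem1, which were not called. A match describes the letters only.

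Genes of the canonical Wnt pathway did not move as a block. Canonical Wnt signals stabilise beta-catenin, which with TCF factors switches on feedback inhibitors such as Axin2 and Nkd1. Of 18 tested Wnt targets and feedback genes 5 rose (27.8%) and 4 fell (22.2%), with a median log2 difference of -0.06. Axin2, which builds the complex that destroys beta-catenin, was close to absent in PBS at 0.571 and 0.783 CPM and stood at 23 and 24.2 CPM in BMP2 and 21.8 and 21.6 CPM in BMP2+DM. Its rise over PBS was 5 ± 0.26 on the log2 scale, and BMP2+DM and BMP2 alone differed by -0.12 ± 0.16 (adjusted p = 0.733). Nkd1, an inhibitor of Dishevelled, climbed in steps, from 4.64 and 7.92 CPM in PBS to 14.9 and 19.9 CPM in BMP2 and 46 and 44.3 CPM in BMP2+DM, so it was above BMP2 too (1.38 ± 0.19, adjusted p = 9.98e-05). Its relative Nkd2 was at 21 and 21.2 CPM in PBS, 39.2 and 42.1 CPM in BMP2 and 38.8 and 34.4 CPM in BMP2+DM.

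Sfrp2, a secreted Wnt-binding protein, was not called in BMP2 alone and was high when dorsomorphin was added: 45.4 and 46.3 CPM in PBS, 54.2 and 50.5 CPM in BMP2 and 121 and 123 CPM in BMP2+DM, 2.66-fold above PBS (adjusted p = 3.21e-09) and 1.22 ± 0.09 above BMP2 on the log2 scale. Myc and Ccnd1, Wnt targets known to drive proliferation, were lower than PBS. Myc, the growth-promoting transcription factor, fell from 48.8 and 45.8 to 21.1 and 20.6 CPM (-1.18 ± 0.13), with 27.1 and 31.1 CPM in BMP2. Ccnd1, encoding cyclin D1, fell from 233 and 221 to 121 and 119 CPM (-0.92 ± 0.07), and 23.4% of its exon length overlaps LTO1. Dkk2, a Wnt antagonist, had 52 counts in PBS and 0 in BMP2+DM, at least 14-fold lower, and the list's median is the same with Dkk2 at that bound since it stays the lowest member. Apcdd1, the fifth riser, lost its call whenever any 1 library of these groups was left out, and Fzd7, a Wnt receptor gene and the fourth faller, kept its call in 1 of the 4 fits. The TCF motif CTTTGATN was found for 1 of 11 Wnt-list genes with a promoter (9.09%), against 2.93% of tested genes and 3.71% of all promoters.

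Interferon-stimulated transcripts were lower in BMP2+DM than in PBS, with the lowest median of the 39 pathway lists. Type I interferons signal through the JAK-STAT pathway to a complex of STAT factors and IRF9, which binds interferon response elements and switches on antiviral genes. Of 42 tested interferon-stimulated genes 38 were lower in BMP2+DM than in PBS (90.5%, against 11.5% of all tested genes) and 0 were higher, with a median log2 difference of -2.48. Without both high-repeat libraries 33 were lower, and each of the 4 leave-one-out fits called 35 to 37. BMP2 alone against PBS called 40 of the 42 lower, and against BMP2 alone BMP2+DM was lower at 4 and higher at 5, so nearly all of the list sat low in both treated groups.

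Many promoters of this list hold letters like those that this complex is known to bind, and some are shown because the list fell. The core GAAANNGAA, searched on both strands in the same 300-base windows, was present for 23 of the 33 tested members with a RefSeq promoter (69.7%), against 8.45% of tested genes (907 of 10732) and 8.56% of all promoters (2812 of 32851). Among genes called lower in BMP2+DM it was present for 12% and among genes called higher for 8.87%. The 250 bases before the start are printed for 5 members that fell, 5′ to 3′ on the gene's strand, with every match in capitals, read on either strand and run together where matches overlap. They lie, in the order listed, at chr19:34640639-34640888 (plus), chr19:34583279-34583528 (plus), chr5:92348890-92349139 (minus), chr11:48871421-48871670 (minus) and chr4:156200819-156201068 (minus).
Ifit1: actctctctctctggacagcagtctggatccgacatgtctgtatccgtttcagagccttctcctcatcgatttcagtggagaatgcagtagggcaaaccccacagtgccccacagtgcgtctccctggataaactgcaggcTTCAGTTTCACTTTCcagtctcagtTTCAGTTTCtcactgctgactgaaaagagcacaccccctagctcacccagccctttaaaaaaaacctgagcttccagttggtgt
Ifit3: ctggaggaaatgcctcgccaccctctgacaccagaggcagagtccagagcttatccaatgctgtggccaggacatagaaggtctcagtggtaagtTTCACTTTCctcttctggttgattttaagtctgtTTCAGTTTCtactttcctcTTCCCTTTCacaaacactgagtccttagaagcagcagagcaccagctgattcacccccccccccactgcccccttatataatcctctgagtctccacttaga
Cxcl10: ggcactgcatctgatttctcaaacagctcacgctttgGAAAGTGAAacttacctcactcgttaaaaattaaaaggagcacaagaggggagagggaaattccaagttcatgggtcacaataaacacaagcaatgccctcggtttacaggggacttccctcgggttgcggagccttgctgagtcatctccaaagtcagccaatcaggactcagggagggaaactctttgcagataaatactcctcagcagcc
Irgm1: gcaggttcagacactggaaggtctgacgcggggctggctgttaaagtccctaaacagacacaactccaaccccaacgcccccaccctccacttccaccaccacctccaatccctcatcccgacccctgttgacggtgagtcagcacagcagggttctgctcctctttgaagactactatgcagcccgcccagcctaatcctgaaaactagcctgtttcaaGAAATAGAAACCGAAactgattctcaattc
Isg15: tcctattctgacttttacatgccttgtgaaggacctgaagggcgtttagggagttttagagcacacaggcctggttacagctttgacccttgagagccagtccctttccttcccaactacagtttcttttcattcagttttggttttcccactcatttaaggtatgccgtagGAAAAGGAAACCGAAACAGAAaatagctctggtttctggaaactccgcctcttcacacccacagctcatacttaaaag
Ifit1 and Ifit3 hold 3 matches each, on the strand opposite to the gene, so they appear here as the reverse complement; Isg15 holds 3 overlapping matches that begin 78, 72 and 66 bases before the start. In Irgm1 the matches begin 30 and 24 bases before the start, and Cxcl10 holds a lone match 213 bases before it.

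Ifit1, which binds foreign RNA and blocks its translation, was at 59.8 and 56.7 CPM in PBS, 5.63 and 3.72 CPM in BMP2 and 2.13 and 2.72 CPM in BMP2+DM. It was 24-fold lower than in PBS (-4.58 ± 0.21, adjusted p = 3.64e-11) and lower than in BMP2 alone (-0.95 ± 0.27, adjusted p = 0.0354). Ifit3, its partner protein, read 64 and 65.5 CPM in PBS, 6.18 and 3.53 CPM in BMP2 and 4.93 and 4.56 CPM in BMP2+DM, and the last 2 groups overlapped. The chemokine gene Cxcl10 read 35.9 and 36.9 CPM in PBS, 3.63 and 2.77 CPM in BMP2 and 2.9 and 2.72 CPM in BMP2+DM, 12.9-fold below PBS (adjusted p = 5.4e-10). Isg15, a ubiquitin-like modifier, was at 39.5 and 35 CPM, 3.45 and 5.53 CPM and 2.32 and 6.5 CPM in the same order, with a wide spread between its BMP2+DM libraries. The immunity-related GTPase genes Irgm1 and Iigp1 fell from 112 and 104 to 32.1 and 30 CPM and from 40.8 and 40.9 to 4.84 and 5.44 CPM. Irgm1 was also lower than in BMP2 alone (-0.56 ± 0.11, adjusted p = 0.00325), where it read 48.1 and 43.1 CPM.

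A few members lay between BMP2 and PBS in BMP2+DM. Gbp7 and Gbp2 encode guanylate-binding proteins that attack vacuoles of pathogens. Gbp7 was at 27.7 and 25.7 CPM in PBS, 2.63 and 3.24 CPM in BMP2 and 6 and 6.6 CPM in BMP2+DM, above BMP2 (1.10 ± 0.24, adjusted p = 0.00723) and still 4.24-fold below PBS. Gbp2 read 16.9 and 18.3 CPM, 4.72 and 3.43 CPM and 6.77 and 7.96 CPM (0.85 ± 0.25 against BMP2, adjusted p = 0.0391). Ifit2 read 72.4 and 71.2 CPM in PBS, 36.4 and 34 CPM in BMP2 and 57.2 and 45.2 CPM in BMP2+DM, only 1.4-fold below PBS, and that call was lost without BMP2+DM replicate 2. The membrane proteins Bst2 and Ifitm3 were the other 2 members above BMP2; Bst2 read 62.4 and 53.4 CPM in PBS and 45.9 and 43.4 CPM in BMP2+DM and Ifitm3 178 and 161 and 143 and 145 CPM. Against PBS each of these 2 kept its call in 1 of 4 leave-one-out fits, and so did Zbp1. The 4 members not called lower, Oas3, Ifi27l2a, Herc6 and Ifit1bl1, had log2 differences of -2.56 ± 0.92, -0.73 ± 0.31, -0.83 ± 0.35 and -1.39 ± 0.69.

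Signalling genes of the interferon pathway included several transducers that fell. Of 17 tested receptor, JAK, STAT and IRF genes 6 fell (35.3%) and 0 rose, and without both high-repeat libraries 3 fell. Irf7, the master regulator of interferon production, fell from 26 and 36.9 to 4.16 and 2.04 CPM (-3.33 ± 0.27). Stat2 fell from 70.8 and 65.2 to 23.3 and 29.5 CPM, Irf9 from 49.2 and 41.9 to 27.7 and 30 CPM and Irf1 from 38.1 and 32.8 to 22.5 and 23.4 CPM. Irf1 lost its call without PBS replicate 1. The kinase gene Jak2, also among the 6 (53.6 and 53.8 to 42.8 and 34.9 CPM), kept its call in 1 of 4. Ifnar1, a chain of the type I interferon receptor, was at 74.8 and 68.9 CPM in PBS and 77 and 74.2 CPM in BMP2+DM and was not called (0.07 ± 0.09).

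Class I antigen presentation, which interferons also raise, was lower in BMP2 alone and returned in part with dorsomorphin. Of 13 tested genes 6 fell against PBS (46.2%), 3 without PBS replicate 2 and 3 without both high-repeat libraries; BMP2 alone called 10 lower. The class I heavy chain H2-K1 read 65.3 and 70.1 CPM in PBS, 40.8 and 38.1 CPM in BMP2 and 67.5 and 57.5 CPM in BMP2+DM, above BMP2 (0.66 ± 0.11, adjusted p = 0.000811) and not called against PBS (-0.11 ± 0.11). H2-D1 read 90.3 and 87.6 CPM, 53.1 and 55.2 CPM and 86.7 and 84.4 CPM in the same order (0.66 ± 0.09 against BMP2). Its light chain B2m read 351 and 357 CPM in PBS, 263 and 259 CPM in BMP2 and 322 and 301 CPM in BMP2+DM; its call against PBS held in 1 of 4 leave-one-out fits. Tap1, a chain of the peptide transporter, stayed low, from 32.8 and 33.2 CPM in PBS to 16.4 and 16.8 CPM in BMP2 and 14.8 and 19.2 CPM in BMP2+DM (-0.96 ± 0.15 against PBS).

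**Figure D3:**
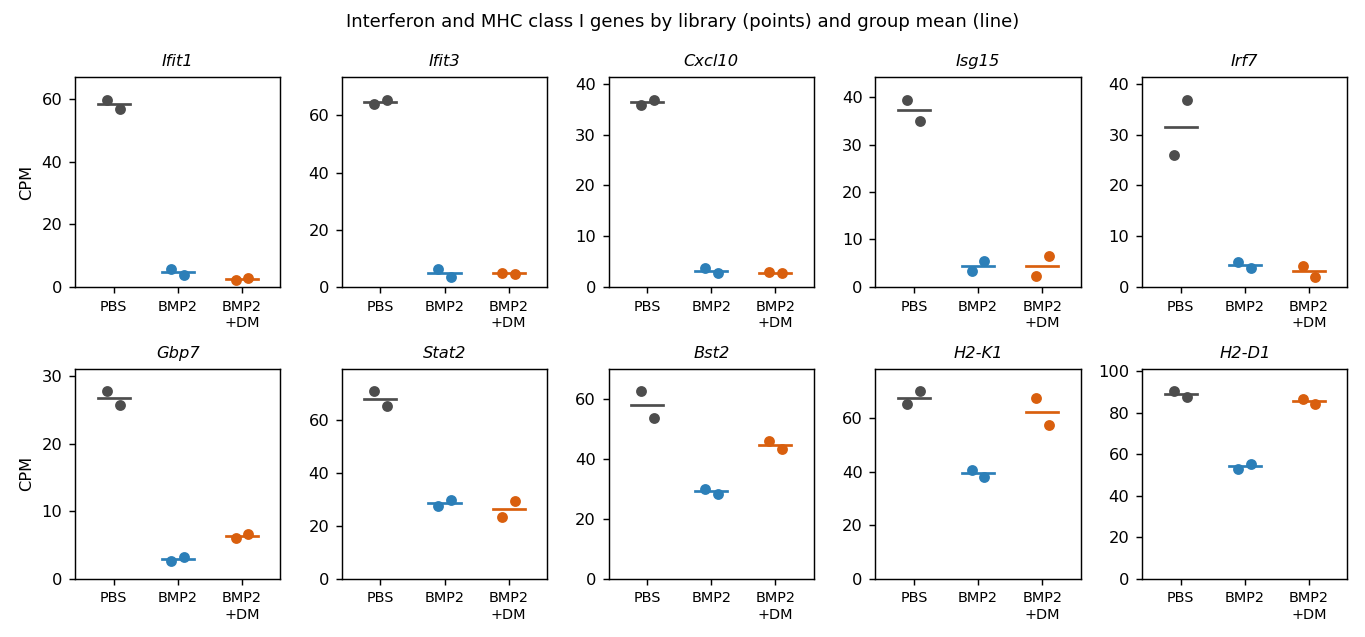
CPM of 10 interferon-related genes (y axis, from 0, 1 panel per gene) in PBS, BMP2 and BMP2+DM; points are libraries and lines are group means. Ifit1, Ifit3, Cxcl10, Isg15 and Irf7 are low in both treated groups, Gbp7 and Bst2 are partly back in BMP2+DM, and H2-K1 and H2-D1 are back within or near the PBS range.

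Chemokines, the secreted attractants of leukocytes, were mostly lower. Of 12 tested 9 fell (75%) and Ccl20 rose. Cxcl5, a neutrophil attractant, went from 313 and 377 CPM in PBS to 57.4 and 75.5 CPM in BMP2 and 121 and 98.6 CPM in BMP2+DM, 3.14-fold below PBS and above BMP2 (0.72 ± 0.12). Ccl2, a monocyte attractant, read 416 and 385 CPM in PBS, 218 and 235 CPM in BMP2 and 218 and 209 CPM in BMP2+DM (-0.91 ± 0.06 against PBS). Cxcl12, which guides vessels and progenitors, fell in 2 steps, 209 and 219.7 CPM in PBS, 150.3 and 158 CPM in BMP2 and 106 and 96.5 CPM in BMP2+DM (-0.60 ± 0.07 against BMP2). Ccl20 stood at 8.28 and 10.3 CPM in PBS, 6.81 and 6.49 CPM in BMP2 and 30.4 and 27 CPM in BMP2+DM, 3.1-fold above PBS (adjusted p = 2.56e-06). Summed over all 10 leukocyte markers of the list, tested or not, the level was 97.46 and 92.46 CPM in PBS and 67.32 and 63.3 CPM in BMP2+DM, and Ptprc, C1qa, Tyrobp and Cd52 were too low to test. Of the 6 tested, Lyz2 and Adgre1 fell, and 1 marker fell without PBS replicate 1, without BMP2+DM replicate 2 or without both high-repeat libraries; the part of these cells in the chemokine and interferon changes was not tested.

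Targets of NF-kB, the inflammatory transcription factor, fell more often than they rose: 14 of 24 fell (58.3%) and 2 rose, and without both high-repeat libraries 9 fell and 1 rose. Ptgs2, encoding the inducible cyclooxygenase, fell from 24.1 and 27.7 CPM in PBS to 6.29 and 9.42 CPM in BMP2+DM (-1.72 ± 0.20, adjusted p = 4.81e-06), with 22.7 and 18.5 CPM in BMP2 (-1.39 ± 0.20 against BMP2). Ccl2, Cxcl5, Cxcl1 and Ccl7, also among the 14, were counted with the chemokines too. Cxcl10 was counted with both the chemokines and the interferon-stimulated genes, so the counts of these lists are not separate measures. The adhesion molecule gene Vcam1 fell from 381 and 393 to 230.4 and 236 CPM and Icam1 from 47.9 and 49.1 to 27.2 and 25.4 CPM. Sod2, the mitochondrial superoxide dismutase, rose from 181 and 179.8 to 243 and 226 CPM (0.38 ± 0.06). The acute-phase gene Saa3, the other riser, kept its call in 1 of 4 leave-one-out fits, being lost without PBS replicate 1, PBS replicate 2 or BMP2+DM replicate 2. The complement component gene C3 was at 25.5 and 23.2 CPM in PBS, 8.36 and 10.1 CPM in BMP2 and 26.4 and 30.4 CPM in BMP2+DM, above BMP2 (1.62 ± 0.17, adjusted p = 5.54e-06) and not called against PBS (0.22 ± 0.15). In the full fit 20% of tested complement genes rose and 10% fell, against 9.38% and 11.5% of all tested genes. Over 10 tested complement genes 2 rose and 1 fell, and none of these 3 calls held in every leave-one-out fit; without PBS replicate 1 1 rose, without PBS replicate 2 or without BMP2+DM replicate 2 none rose or fell, and without both high-repeat libraries 0 rose and 1 fell.

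Extracellular matrix genes and targets of TGF-beta, the sister pathway that signals through SMAD2 and SMAD3, were lower in BMP2+DM. Of 27 tested 21 fell (77.8%) and 3 rose, with a median log2 difference of -0.42; 19 fell without both high-repeat libraries. Ltbp2, a latent TGF-beta binding protein relative, went from 98.2 and 98.5 CPM in PBS to 31.7 and 30.6 CPM in BMP2 and 12.3 and 10.6 CPM in BMP2+DM, 8.6-fold below PBS (-3.10 ± 0.13, adjusted p = 6.92e-12), with no overlap between any of the 3 groups (-1.45 ± 0.13 against BMP2). Tenascin C (Tnc), a matrix protein of injured tissue, went from 504 and 567 CPM to 414 and 415 CPM and 194 and 206 CPM (-1.42 ± 0.06 against PBS).

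Thbs1, thrombospondin 1, an activator of latent TGF-beta, read 3155 and 3228 CPM in PBS, 2627 and 2582 CPM in BMP2 and 1592 and 1572 CPM in BMP2+DM (-1.01 ± 0.04 against PBS and -0.72 ± 0.04 against BMP2). Ccn2, connective tissue growth factor, read 1362 and 1389 CPM, 765 and 760.3 CPM and 521 and 513 CPM (-1.41 ± 0.05 against PBS), and 23.2% of its exon length overlaps Gm15270. Skil, a SMAD corepressor induced by TGF-beta, was near its PBS level in BMP2 (87.3 and 97.9 and 87.9 and 83.1 CPM) and lower in BMP2+DM (50.2 and 42.1 CPM, -1.002 ± 0.10 against PBS). The main fibrillar collagen gene Col1a1 fell from 5147 and 5490 CPM in PBS to 3203 and 3272 CPM (-0.72 ± 0.04), and fibronectin (Fn1) from 6203 and 6413 to 3892 and 4057 CPM (-0.67 ± 0.04).

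Collagen III went the other way. Col3a1 read 1764 and 1899 CPM in PBS, 2582 and 2728 CPM in BMP2 and 3689.7 and 3936 CPM in BMP2+DM, 2.08-fold above PBS (adjusted p = 7.15e-11) and above BMP2 (0.52 ± 0.05). Thbs2, a relative of Thbs1 that restrains vessel growth, read 132 and 152 CPM, 402 and 414 CPM and 310.4 and 321 CPM, 2.23-fold above PBS and below BMP2 (-0.37 ± 0.06). Periostin (Postn) was the third riser, at 1586 and 1727 CPM in PBS and 1825 and 1856 CPM in BMP2+DM, and its call held in 1 of 4 leave-one-out fits. Elastin (Eln) was at 304 and 291 CPM in PBS, 184 and 162 CPM in BMP2 and 303 and 316 CPM in BMP2+DM, above BMP2 (0.84 ± 0.06) and not called against PBS (0.06 ± 0.06).

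Fibroblast markers moved beside these genes but not in 1 direction. Of 13 tested 8 fell and 3 rose; 5 fell without PBS replicate 1 and 5 without both high-repeat libraries. Pdgfra, the growth factor receptor of fibroblasts, fell from 217 and 209 to 107 and 119 CPM and Thy1 from 176 and 175 to 97 and 93.6 CPM. Meox1, a homeobox gene of activated fibroblasts, fell from 13.9 and 13.7 CPM in PBS to 6 and 7.25 CPM in BMP2 and 1.93 and 2.33 CPM in BMP2+DM (-2.69 ± 0.27 against PBS). Dermatopontin (Dpt) rose from 39.8 and 41.9 to 76.1 and 73.5 CPM. Of 12 smooth muscle and pericyte markers 6 fell and 2 rose (1 without PBS replicate 1 or without both high-repeat libraries), and their summed level was 4348 and 4374 CPM in PBS and 2771 and 2925 CPM in BMP2+DM. That sum includes Des, also a member of the sarcomere list, which fell from 837 and 932 CPM in PBS to 508 and 539 CPM in BMP2+DM. It is therefore not particular to smooth muscle cells and pericytes. The part of fibroblasts, smooth muscle cells and pericytes in the matrix changes was not tested.

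Enzymes that cut the matrix and their inhibitors changed in both directions. Of 15 tested 7 fell (46.7%) and 3 rose; without PBS replicate 2 4 fell. Timp1, a metalloproteinase inhibitor, fell from 199.6 and 174 CPM in PBS to 135 and 145 CPM in BMP2 and 60.5 and 64.3 CPM in BMP2+DM (-1.58 ± 0.08 against PBS). Its relative Timp3 rose with BMP2 and stayed up, 384 and 397 CPM in PBS, 920.1 and 935 CPM in BMP2 and 867 and 859 CPM in BMP2+DM (1.14 ± 0.05 against PBS, -0.10 ± 0.05 against BMP2), and 21.3% of its exon length overlaps Syn3. Adamts5, an aggrecanase, fell in BMP2 alone and rose with dorsomorphin: 227 and 239 CPM in PBS, 155 and 143 CPM in BMP2 and 465 and 438 CPM in BMP2+DM (0.95 ± 0.06 against PBS, 1.60 ± 0.06 against BMP2). Mmp13, a collagenase gene, had 42 counts in PBS and 0 in BMP2+DM, at least 11.3-fold lower; its call was lost without PBS replicate 2.

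Hyaluronan, the glycosaminoglycan of the developing heart's jelly, is made by the Has enzymes. Of 12 tested genes for its synthesis and binding 5 fell (41.7%) and 1 rose, and 3 fell without PBS replicate 2 or without BMP2+DM replicate 2. Has2, the main synthase of the embryonic heart, read 7.43 and 10.1 CPM in PBS, 5.72 and 9.63 CPM in BMP2 and 1.64 and 1.65 CPM in BMP2+DM, 5.27-fold below PBS (adjusted p = 5.57e-05) and lower than BMP2 (-2.21 ± 0.35). The receptor gene Cd44 fell from 113 and 111 to 65.2 and 60 CPM and the binding proteoglycan gene Vcan from 231 and 237 to 175 and 164 CPM. Cemip, which degrades hyaluronan, rose from 544 and 549 CPM in PBS to 659 and 675 CPM, with 382 and 381 CPM in BMP2.

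Integrins, the receptors through which cells hold the matrix, were mostly lower. Of 16 tested 9 fell (56.2%) and 2 rose. Itgb3, the beta chain of a vitronectin receptor, fell from 32.4 and 27.1 CPM in PBS to 15.1 and 13.4 CPM in BMP2 and 6.09 and 8.64 CPM in BMP2+DM (-2.01 ± 0.19 against PBS). Its partner Itgav fell from 301 and 339 to 175 and 135 CPM (-1.04 ± 0.10) and the fibronectin receptor chain Itga5 from 298 and 292 to 169.8 and 184 CPM (-0.74 ± 0.07). Itga8, the alpha chain of a nephronectin receptor, rose from 19.2 and 27.7 CPM in PBS to 102 and 102 CPM in BMP2 and 159.9 and 144 CPM in BMP2+DM (2.70 ± 0.12 against PBS, 0.57 ± 0.11 against BMP2).

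Genes of the contractile apparatus were mostly lower than in PBS. Of 26 tested sarcomere and Z-disc genes 19 fell (73.1%) and 3 rose, with a median log2 difference of -0.33, and 7 of the 26 were above BMP2 alone and 0 below it. Actc1, cardiac alpha actin, was at 6789.9 and 6723 CPM in PBS, 3159 and 3158 CPM in BMP2 and 4152 and 4245 CPM in BMP2+DM, 1.61-fold below PBS (adjusted p = 2.8e-10) and above BMP2 (0.41 ± 0.04). Myh7, the beta myosin heavy chain, stayed at the lower level: 232 and 226 CPM, 104 and 90.3 CPM and 111 and 104 CPM (-1.09 ± 0.08 against PBS). Myh6 fell too, by a small amount (-0.09 ± 0.03, 1.07-fold lower, adjusted p = 0.0143). Tnnt2, cardiac troponin T, was at 5112 and 4893 CPM in PBS and 4537 and 4846 CPM in BMP2+DM and was not called (-0.09 ± 0.04).

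The 3 sarcomere genes that rose were Myom2, Csrp3 and Myoz2. Myom2, the M-band protein of mature muscle, was lower in BMP2 and higher with dorsomorphin, 155 and 146 CPM in PBS, 79.1 and 92.7 CPM in BMP2 and 238 and 249.7 CPM in BMP2+DM (0.70 ± 0.07 against PBS, 1.51 ± 0.08 against BMP2). Csrp3, a Z-disc protein that senses stretch, read 212 and 190 CPM, 323 and 331 CPM and 302 and 331 CPM, and Myoz2, which tethers calcineurin at the Z-disc, read 164 and 165 CPM, 245 and 245 CPM and 252 and 224 CPM. Both of these were already up in BMP2 alone.

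Calcium handling and ion channel genes fell more often than they rose. Of 15 tested calcium handling genes 7 fell (46.7%) and 0 rose, with 1 rising without PBS replicate 2. Ryr2, the release channel of the sarcoplasmic reticulum, read 652 and 662 CPM in PBS, 338 and 325 CPM in BMP2 and 445 and 457 CPM in BMP2+DM (-0.54 ± 0.05 against PBS, 0.44 ± 0.05 against BMP2). Atp2a2, the calcium pump, read 3518 and 3640.2 CPM, 2517 and 2555 CPM and 2945 and 2876 CPM. Of 19 tested channels and connexins 7 fell (36.8%) and 1 rose. Hcn4, the pacemaker channel, was at 10 and 11 CPM in PBS, 2 and 3.62 CPM in BMP2 and 1.16 and 1.84 CPM in BMP2+DM (-2.80 ± 0.36 against PBS). Cacna1g, a T-type calcium channel, and Kcne1, a potassium channel subunit, were not called in BMP2 alone and fell when dorsomorphin was added: Cacna1g read 88.3 and 78.7, 68 and 73.9 and 39.4 and 34.2 CPM and Kcne1 38.8 and 36.9, 45.6 and 49.2 and 13.3 and 20.4 CPM in PBS, BMP2 and BMP2+DM. The riser, the potassium channel gene Kcnd2, was at or below 1.84 CPM in every library of these groups and kept its call in 1 of 4 leave-one-out fits; without PBS replicate 1, without PBS replicate 2, without BMP2+DM replicate 2 or without both high-repeat libraries no member rose, and without BMP2+DM replicate 1 2 did.

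The fetal and stress programme that failing hearts switch on was lower. Of 14 tested genes 10 fell (71.4%), with a median of -0.92, and 1 rose. Nppa, atrial natriuretic peptide, read 2541 and 2359 CPM in PBS, 1092 and 1063 CPM in BMP2 and 1319.8 and 1301 CPM in BMP2+DM, 1.87-fold below PBS (adjusted p = 7.32e-10), though 61.5% of its exon length overlaps Gm13054. Nppb, brain natriuretic peptide, read 255 and 247 CPM, 70 and 73.1 CPM and 110.5 and 134 CPM (-1.04 ± 0.08 against PBS, 0.77 ± 0.09 against BMP2). Ankrd1, a titin-binding stress protein, fell from 2657 and 2681 to 1397 and 1396 CPM, with 1341 and 1364 CPM in BMP2. Gdf15, the stress cytokine that rose, went from 28.5 and 30.4 to 39.1 and 44.1 CPM and was no longer called when PBS replicate 1 or BMP2+DM replicate 2 was left out; without both high-repeat libraries 0 members rose.

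Cardiac transcription factors changed in a minority of members. Of 20 tested 5 rose (25%) and Tbx20 fell; without both high-repeat libraries 2 rose and 2 fell, and 2 fell without PBS replicate 1 or without BMP2+DM replicate 1. The risers included regulators of energy metabolism: Esrrg, an oestrogen-related receptor, went from 14.4 and 15.7 to 24.7 and 32.8 CPM, its relative Esrra from 70.5 and 66.8 to 95.5 and 108 CPM, and their coactivator Ppargc1a from 38.3 and 37.3 to 51.1 and 54 CPM. Mef2a rose from 189.8 and 195 to 229.9 and 227 CPM, and Prox1, at 39.9 and 42 and 53.1 and 53.6 CPM, lost its call in every leave-one-out fit. Among 11 muscle splicing regulators, Rbfox1 fell furthest, from 15.4 and 17.5 CPM in PBS to 9.99 and 9.25 CPM in BMP2 and 0.871 and 1.36 CPM in BMP2+DM, 14.6-fold below PBS (adjusted p = 1.73e-08) and -3.10 ± 0.30 against BMP2. Mbnl2 and Ptbp1 also fell, Mbnl2 from 259.5 and 282 to 198 and 164 CPM and Ptbp1 from 365 and 361 to 274 and 281 CPM; 5 members fell without BMP2+DM replicate 1. The 2 risers of that list, Rbm20 and Rbm24, lost their calls in at least 3 of 4 leave-one-out fits, and 0 members rose without both high-repeat libraries.

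**Figure D4:**
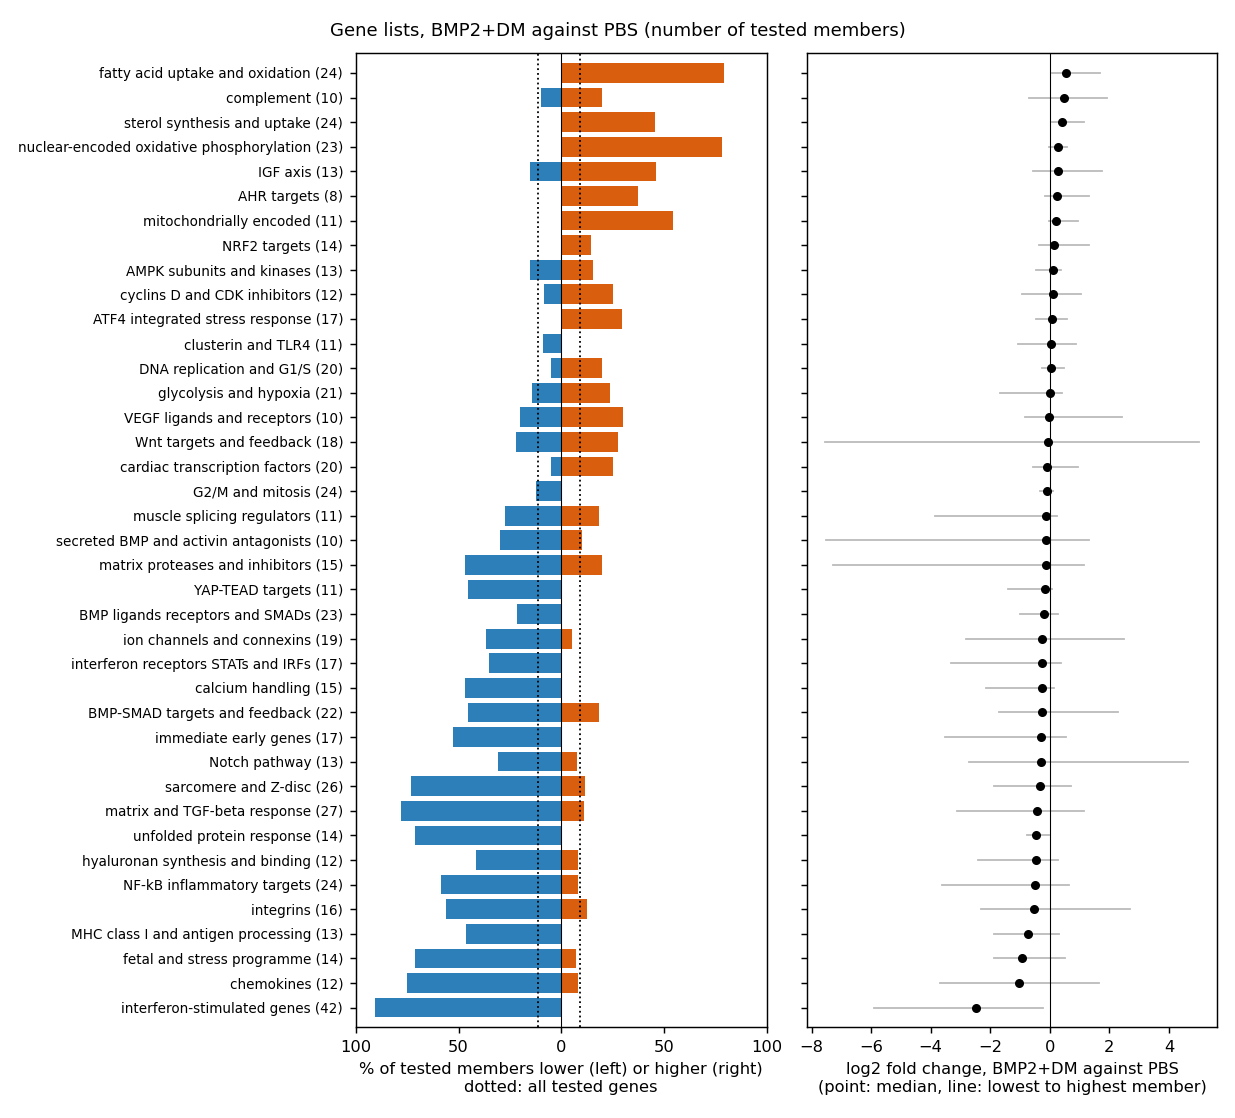
For 39 pathway lists, the left panel gives the percent of tested members called lower and higher in BMP2+DM than in PBS, with dotted lines at 11.5% and 9.38%, the shares over all tested genes, and the right panel gives the median log2 difference of each list with the lowest and highest member. Interferon-stimulated genes have the lowest median at -2.48, and fatty acid genes have the highest share called higher at 79.2%.

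Genes for burning fatty acids, the main fuel of the mature heart, rose together. Of 24 tested 19 rose (79.2%, against 9.38% of all tested genes) and 0 fell, with a median log2 difference of 0.53. Leave-one-out fits called 16 to 17, and without both high-repeat libraries 11. Fabp3, the heart's fatty acid binding protein, was at 289 and 259 CPM in PBS, 432 and 391 CPM in BMP2 and 505 and 492 CPM in BMP2+DM, 1.82-fold above PBS (adjusted p = 5.6e-09) and above BMP2 (0.28 ± 0.06). Cd36, which takes fatty acids into the cell, read 94.4 and 92.9 CPM, 119 and 120 CPM and 167 and 167 CPM (0.84 ± 0.07 against PBS). Acsl1, which couples them to coenzyme A, read 128 and 121 CPM, 179.6 and 176 CPM and 205 and 215 CPM.

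Transport into mitochondria and its regulator followed. Cpt1b, the muscle carnitine palmitoyltransferase, read 125 and 124 CPM in PBS, 147 and 153 CPM in BMP2 and 207 and 199 CPM in BMP2+DM, though 81.4% of its exon length overlaps Gm44502, and its relative Cpt1a, with no such overlap, read 94.5 and 96.8 CPM, 98.4 and 93 CPM and 127 and 138 CPM (0.48 ± 0.08 against PBS). Ppara, the nuclear receptor that switches these genes on, was at 5.5 and 6.96 CPM in PBS, 9.08 and 8.2 CPM in BMP2 and 16.3 and 13.1 CPM in BMP2+DM, 2.37-fold above PBS (adjusted p = 0.000473). Acadl and Decr1, which act inside the mitochondrion, were the risers with the least support: each lost its call in all 4 leave-one-out fits. Against BMP2 alone 14 of the 24 were higher and 0 lower, and BMP2 alone against PBS had 10 higher.

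The respiratory chain rose by smaller amounts. Of 23 tested nuclear-encoded subunits 18 rose (78.3%) and 0 fell, with a median log2 difference of 0.26. Uqcrfs1, the Rieske iron-sulphur protein of complex III, went from 243 and 235 CPM in PBS to 321 and 328 CPM in BMP2 and 342 and 337 CPM in BMP2+DM (0.51 ± 0.05 against PBS). BMP2 alone was above PBS at 13 of the 23, and Uqcrfs1 was not called between BMP2+DM and BMP2 (0.07 ± 0.05). Of 11 tested mitochondrially encoded genes 6 rose (54.5%) and 0 fell: mt-Nd1, a complex I subunit, read 4455 and 4461 CPM in PBS and 6285 and 5742 CPM in BMP2+DM, and mt-Co1, of complex IV, 21335 and 22320 and 25420 and 24076 CPM. The list is partial: mt-Atp6, with 13 and 2 counts in PBS and 9 and 8 in BMP2+DM, and mt-Atp8 were too low to test. The log2 difference of mt-Nd3, among the 6, ranged from 0.429 to 1.34 as single libraries were left out. Counts of all mitochondrial gene symbols made up 4.16% and 4.38% of gene counts in PBS and 5.30% and 4.94% in BMP2+DM. The part of this share in the changes was not tested.

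Part of the cholesterol synthesis pathway rose. Of 24 tested genes for sterol synthesis and uptake 11 rose (45.8%) and 0 fell, with a median of 0.40. The count was 7 without PBS replicate 1, 6 without PBS replicate 2, 6 without BMP2+DM replicate 2 and 6 without both high-repeat libraries. Squalene epoxidase (Sqle) was at 35.6 and 33.1 CPM in PBS, 52.8 and 50.3 CPM in BMP2 and 73 and 77.7 CPM in BMP2+DM, 2.19-fold above PBS (adjusted p = 3.46e-07) and above BMP2 (0.55 ± 0.10). Cyp51, the sterol demethylase, read 63.8 and 63.9 CPM, 68.2 and 66.6 CPM and 100 and 99.9 CPM, and Hmgcs1, which makes the precursor of mevalonate, read 110 and 102 CPM, 113 and 107 CPM and 154 and 149 CPM; neither was called in BMP2 alone against PBS (0.08 ± 0.09 and 0.05 ± 0.08). BMP2+DM was above BMP2 alone at 12 of the 24, where BMP2 alone was above PBS at 1. The sterol element TCACNCCAC was present for 1 of 16 genes of the list with a promoter (6.25%), against 1.44% of tested genes and 1.24% of all promoters.

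Chaperones of the endoplasmic reticulum, the output of the unfolded protein response, fell. Of 14 tested 10 fell (71.4%) and 0 rose, with a median of -0.46, and the count was 10 in each of the 4 leave-one-out fits and 8 without both high-repeat libraries. Pdia6, a disulphide isomerase, went from 425 and 399 CPM in PBS to 341 and 323 CPM in BMP2 and 285 and 269.8 CPM in BMP2+DM (-0.57 ± 0.05 against PBS, adjusted p = 3.46e-07). Hyou1, a chaperone of the HSP70 family, read 189.8 and 201 CPM, 168 and 168 CPM and 133 and 136 CPM. Calreticulin (Calr), which also stores calcium, read 1019 and 1016 CPM, 930 and 881 CPM and 700.1 and 710 CPM, and Hspa5, the chaperone BiP, 968 and 975 CPM, 945 and 942 CPM and 793 and 790 CPM. BMP2+DM was below BMP2 alone at 7 of the 14.

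**Figure D5:**
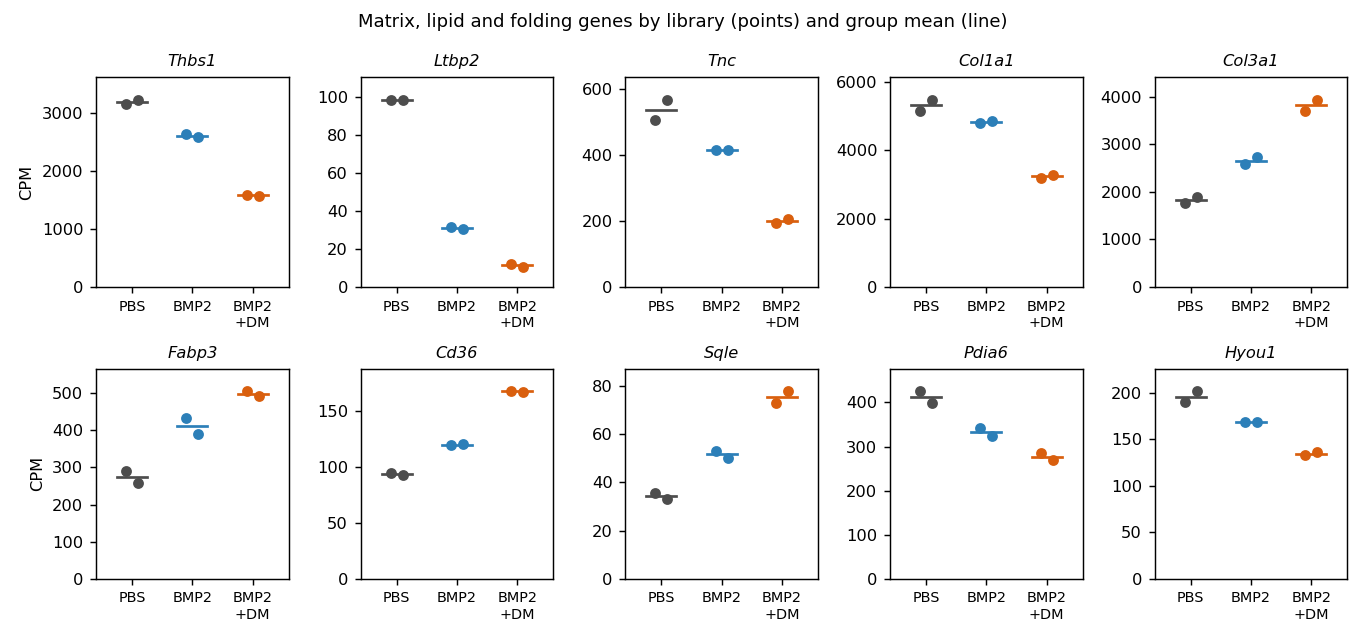
CPM of 10 genes of the matrix, lipid metabolism and the endoplasmic reticulum (y axis, from 0, 1 panel per gene) in PBS, BMP2 and BMP2+DM; points are libraries and lines are group means. Thbs1, Ltbp2, Tnc, Col1a1, Pdia6 and Hyou1 step down from PBS to BMP2+DM, and Col3a1, Fabp3, Cd36 and Sqle step up, with little distance between the 2 libraries of a group.

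The related arm driven by ATF4 answers amino acid shortage. Of 17 tested 5 rose (29.4%) and 0 fell; the risers numbered 3 without PBS replicate 1, 2 without PBS replicate 2, 2 without BMP2+DM replicate 2 and 2 without both high-repeat libraries, and 2 members fell without PBS replicate 1 and 1 without both high-repeat libraries. Psat1, of serine synthesis, read 111 and 109 CPM in PBS, 87.8 and 87.7 CPM in BMP2 and 159 and 148 CPM in BMP2+DM (0.48 ± 0.07 against PBS). Ddit3, a factor of the stress response, read 27.1 and 24.4 CPM, 23.9 and 26.3 CPM and 38 and 39.2 CPM and lost its call without PBS replicate 2. Among NRF2 targets of the oxidant response 2 of 14 rose, and among targets of the aryl hydrocarbon receptor (AHR) 3 of 8; without PBS replicate 1 or without BMP2+DM replicate 2 each list had 1 riser, without PBS replicate 2 the AHR list had 1, without PBS replicate 1 an NRF2 target fell, and without both high-repeat libraries 1 NRF2 target and no AHR target rose. In the full fit the risers made up 14.3% of NRF2 targets and 37.5% of AHR targets, against 9.38% of all tested genes. Gstm1, a glutathione transferase in the NRF2 list, rose from 75.4 and 76.2 to 123 and 117 CPM. Aldh3a1, an aldehyde dehydrogenase in both lists, went from 3.5 and 3.91 to 7.64 and 10.8 CPM, and was no longer called when either PBS replicate 1 or BMP2+DM replicate 2 was left out.

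AMPK, the second known target of dorsomorphin, showed small changes in its subunit genes. In its list 15.4% were called higher and 15.4% lower, not far from the 9.38% and 11.5% of all tested genes. Of 13 tested genes 2 rose and 2 fell, and without both high-repeat libraries none of the 4 passed the edgeR test; without PBS replicate 1 or without PBS replicate 2 none rose, and without BMP2+DM replicate 2 1 rose. Prkaa2, the catalytic subunit of heart muscle, was at 144 and 138 CPM in PBS and 179 and 149 CPM in BMP2+DM and was not called (0.21 ± 0.08, adjusted p = 0.0699). Prkag2, a regulatory subunit, fell from 109 and 105 to 83.1 and 76.6 CPM (-0.42 ± 0.08), with 74.8 and 77.3 CPM in BMP2. Transcript levels do not measure the activity of the kinase.

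Glycolysis genes were divided, 5 of 21 higher (23.8%) and 3 lower (14.3%). Slc16a3, the lactate exporter, was not called in BMP2 alone and fell when dorsomorphin was added: 82.5 and 72.5 CPM in PBS, 69.2 and 68.1 CPM in BMP2 and 22.7 and 26.3 CPM in BMP2+DM, 3.16-fold below PBS (adjusted p = 7.85e-09). Hk1, a hexokinase, rose from 280.4 and 263 to 379 and 351 CPM, and Gapdh from 2124 and 2022 to 2327 and 2406 CPM, the latter call being lost without PBS replicate 2. The risers numbered 3 without PBS replicate 2, without BMP2+DM replicate 2 or without both high-repeat libraries, and 1 member was lower without PBS replicate 1, without PBS replicate 2, without BMP2+DM replicate 1 or without both high-repeat libraries.

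Cell-cycle genes were examined in 2 lists. Of 20 tested genes of DNA replication 4 rose (20%, against 9.38% of all tested genes) and 1 fell, and of 24 genes of mitosis 3 fell (12.5%, near the 11.5% of all tested genes) and 0 rose. Mki67, the proliferation marker, was at 285 and 295 CPM in PBS and 314 and 283 CPM in BMP2+DM (0.04 ± 0.06). Without PBS replicate 1, without PBS replicate 2 or without both high-repeat libraries the replication list had 2 risers, and no member of it fell in any leave-one-out fit or without both high-repeat libraries; the mitosis list had 1 lower member without PBS replicate 1, PBS replicate 2 or BMP2+DM replicate 2, and 0 without both high-repeat libraries. The D cyclins changed in opposite directions: as Ccnd1 fell, Ccnd2 rose from 319.9 and 334 CPM in PBS to 472 and 459 CPM in BMP2 and 493 and 503 CPM in BMP2+DM (0.61 ± 0.05 against PBS).

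Immediate early genes, which answer growth signals within minutes to hours, leaned lower: 9 of 17 fell (52.9%) and 0 rose. This count was 5 without PBS replicate 1, 3 without PBS replicate 2, 4 without BMP2+DM replicate 1 and 3 without both high-repeat libraries. BMP2+DM was also below BMP2 alone at 9 of the 17. Besides Myc, Junb fell from 104 and 107 CPM in PBS to 67.5 and 76.2 CPM (-0.56 ± 0.09), with 106 and 109 CPM in BMP2. Fosl1 fell from 11.4 and 10.3 to 3.19 and 4.85 CPM, with 57.2% of its exon length overlapping Ccdc85b. Egr2, a zinc finger factor, was at 2.28 and 3.39 CPM in PBS, 3.09 and 2.96 CPM in BMP2 and 0.677 and 0.777 CPM in BMP2+DM and was not called without PBS replicate 2 or without BMP2+DM replicate 1. The founding members Fos and Egr1 were not called (-0.31 ± 0.25 and -0.07 ± 0.08 on the log2 scale).

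Insulin-like growth factor genes rose more often than they fell, 6 of 13 higher (46.2%) and 2 lower (15.4%); 1 was lower without PBS replicate 2, without BMP2+DM replicate 1, without BMP2+DM replicate 2 or without both high-repeat libraries. Igf1, the growth factor, was at 19.2 and 21 CPM in PBS, 49.4 and 55.7 CPM in BMP2 and 60 and 40.3 CPM in BMP2+DM (2.5-fold above PBS, and -0.07 ± 0.15 against BMP2). Its binding protein gene Igfbp2 rose further with dorsomorphin, 56.1 and 54.4 CPM, 78.9 and 84.2 CPM and 143 and 146 CPM, and Igfbp5 was above PBS and below BMP2 (-1.10 ± 0.14 against BMP2), 6 and 6.87 CPM in PBS, 44.6 and 48.9 CPM in BMP2 and 23.4 and 20.3 CPM in BMP2+DM.

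Among vessel growth factors and their receptors, 1 ligand rose far and the receptors Flt1 and Kdr fell. Vegfd, a VEGF family ligand that acts on lymphatic vessels, was at 21.8 and 19.2 CPM in PBS, 29 and 26 CPM in BMP2 and 104 and 117 CPM in BMP2+DM, 5.36-fold above PBS (adjusted p = 8.1e-11) and 2.004 ± 0.12 above BMP2 on the log2 scale. Of 10 tested VEGF ligands and receptors 3 rose and 2 fell; without both high-repeat libraries 1 rose and 1 fell. In the full fit 30% of that list rose and 20% fell, against 9.38% and 11.5% of all tested genes. The receptor gene Flt1 fell from 46.7 and 47.8 to 23.4 and 29.3 CPM. Kdr, whose kinase dorsomorphin is known to inhibit, read 15.1 and 15.5 CPM in PBS, 28 and 19.5 CPM in BMP2 and 8.12 and 9.71 CPM in BMP2+DM; it was below BMP2 (-1.41 ± 0.20, adjusted p = 0.000166), and its call against PBS held in 1 of 4 leave-one-out fits. The fallers numbered 1 without PBS replicate 1, PBS replicate 2 or BMP2+DM replicate 1. Esm1, a proteoglycan of endothelial tip cells, fell from 30.1 and 29.4 CPM in PBS to 12.3 and 16.6 CPM in BMP2 and 2.51 and 1.65 CPM in BMP2+DM (14.2-fold below PBS).

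Of 13 Notch pathway genes 4 fell (30.8%) and 1 rose: Notch1 went from 51.5 and 68.2 to 36.4 and 35.9 CPM, the endothelial receptor gene Notch4 from 10.2 and 13.6 to 4.35 and 4.47 CPM and the target Heyl from 9.5 and 9.65 to 3.1 and 3.59 CPM. The riser, the ligand gene Dll1, had at most 0.087 CPM in a PBS library and kept its call in 1 of 4 leave-one-out fits, being lost without PBS replicate 1, PBS replicate 2 or BMP2+DM replicate 1; without both high-repeat libraries 0 members rose. Endothelial markers fell beside these genes: 8 of 14 fell (57.1%) and 0 rose, with 5 falling without BMP2+DM replicate 1 and 5 without both high-repeat libraries. The phosphatase gene Ptprb fell from 104 and 106 to 45.3 and 43.9 CPM, the sialomucin gene Emcn from 50.6 and 62.3 to 15.8 and 17.8 CPM, and Pecam1 from 54.6 and 49.7 to 34 and 32.3 CPM, whereas Egfl7, Erg, Robo4, Esam, Tie1 and Cldn5 were not called. Flt1 and Kdr, also in the VEGF list, and Eng, also in the list of BMP receptors, are among the 8 that fell. The marker count is therefore not a measure separate from those lists. The part of endothelial cell number in the vessel genes was not tested.

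Clusterin (Clu), a secreted chaperone, fell from 460.5 and 443 CPM in PBS to 266 and 281 CPM in BMP2 and 210.5 and 216 CPM in BMP2+DM, 2.12-fold below PBS (adjusted p = 7.65e-11) and below BMP2 (-0.36 ± 0.05). Tlr4, the receptor for bacterial lipopolysaccharide, was at 26.9 and 29.2 CPM in PBS and 30.7 and 23.6 CPM in BMP2+DM and was not called (-0.05 ± 0.16). Clu was the member called among 11 tested genes of the clusterin and TLR4 list; without BMP2+DM replicate 1 2 were called lower. Of 11 targets of the growth regulator YAP 5 fell (45.5%) and 0 rose, among them Ccn2, Ankrd1 and the receptor kinase gene Axl (587 and 589.7 to 376 and 404 CPM); 3 fell without PBS replicate 2 and 3 without both high-repeat libraries.

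Epicardial and mesothelial markers were mixed. Of 10 tested 5 fell and Aldh1a2, the retinoic acid synthase, rose from 29.6 and 37.8 to 60.3 and 66.2 CPM; 2 fell without PBS replicate 1 or without both high-repeat libraries, and 3 without any other library of these groups. Lrrn4 fell from 40.3 and 43.6 CPM in PBS to 22 and 19.4 CPM, and the keratin gene Krt18 from 50.1 and 50 to 21.6 and 26.1 CPM. Mesothelin (Msln) was at 21.6 and 22.8 CPM in PBS, 6.54 and 10.3 CPM in BMP2 and 23.6 and 21.9 CPM in BMP2+DM, near its PBS level after BMP2 alone had been lower (1.44 ± 0.20 against BMP2, adjusted p = 0.000117). Their summed level was 272.1 and 287.8 CPM in PBS and 248.2 and 235.2 CPM in BMP2+DM. Of 10 cardiomyocyte markers 7 fell and 0 rose, and their summed level went from 34680 and 34240 CPM to 28520 and 28890 CPM. Myh6, Tnnt2, Actc1, Actn2, Tnni3, Myl7 and Ttn are members of the sarcomere list too. The marker sum is therefore not a measure separate from the sarcomere changes. The part of cardiomyocyte number in those changes was not tested. Of 3 tested Schwann cell and neuronal markers Tubb3 rose and Dbh fell, and neither call held in every leave-one-out fit; without both high-repeat libraries 0 rose and 0 fell. The 6 erythroid markers, none with enough counts to test, summed to at most 1.214 CPM in any library.

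Among genes with a mean of at least 2 log2 CPM and no overlap between the groups, the largest rises were led by Axin2, Nkd1 and Itga8. Itih5, which binds hyaluronan, went from 16.1 and 18.5 CPM in PBS to 80.7 and 84.5 CPM in BMP2 and 107 and 109 CPM in BMP2+DM (2.65 ± 0.11 against PBS). Syt13, a synaptotagmin of vesicle traffic, was not called in BMP2 alone and rose when dorsomorphin was added, 3.64 and 2.17 CPM, 3.63 and 4.01 CPM and 17.1 and 16.1 CPM (2.49 ± 0.27 against PBS, 2.12 ± 0.26 against BMP2). Peg10, an imprinted gene derived from a retrotransposon, read 88.9 and 93.5 CPM, 209 and 206 CPM and 372 and 363 CPM, 4.03-fold above PBS. Ccdc80, a secreted matrix protein, read 81.7 and 84.7 CPM, 237 and 248 CPM and 299.6 and 324 CPM.

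The remaining large rises were of genes at lower levels. Mtfp1, a protein of mitochondrial fission, went from 3.5 and 4.7 CPM in PBS to 17.5 and 24.6 CPM in BMP2+DM, Aldh1a7, an aldehyde dehydrogenase, from 4.86 and 3.65 to 20.6 and 15.3 CPM and the nuclear pore gene Nup210 from 2.5 and 1.3 to 10.5 and 6.5 CPM. Mrgprf, an orphan receptor, went from 3.21 and 3.22 to 15.3 and 12.4 CPM, with 5.81 and 26.8 CPM in the BMP2 libraries, and DESeq2 did not call it (adjusted p = 0.076).

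Of the 12 largest falls 9 were interferon-stimulated genes: Ifit1, Ifit3, Ifit3b, Ifi44, Rtp4, Usp18, Cxcl10, Cmpk2 and Irf7. Usp18, which removes ISG15 from proteins, went from 27.2 and 26.6 CPM in PBS to 2.73 and 2.67 CPM in BMP2 and 2.03 and 1.55 CPM in BMP2+DM. Rtp4, a chaperone of receptors, was lower in BMP2+DM than in BMP2 too, at 18.4 and 23 CPM, 2.45 and 3.82 CPM and 0.774 and 1.17 CPM (-1.68 ± 0.39 against BMP2). The other 3 were Rbfox1, Esm1 and Megf10, an engulfment receptor of muscle precursors, which fell from 19.6 and 22.2 CPM in PBS to 11.4 and 10 CPM in BMP2 and 1.93 and 1.94 CPM in BMP2+DM (-3.42 ± 0.24 against PBS). BMP2 against PBS gave log2 differences of -0.77 ± 0.21, -1.04 ± 0.18 and -0.96 ± 0.19 for these 3, and BMP2+DM against BMP2 gave -3.10 ± 0.30, -2.78 ± 0.25 and -2.46 ± 0.25.

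Some genes with at least 30 counts in PBS had none in either BMP2+DM library. Besides Sost, Dkk2 and Mmp13 these were Serpinb2, an inhibitor of plasminogen activators, with 54 counts over the PBS libraries (at least 14.6-fold lower), and the kinase gene Sbk3 with 51 (at least 13.8-fold lower). In BMP2 alone Serpinb2 was at 4.27 and 2.29 CPM, where PBS had 1.71 and 2.61 CPM, and Dkk2 was at 1.82 and 1.24 CPM; neither was called in BMP2 against PBS. Sost, at 0.273 and 0.0954 CPM in BMP2 alone, was already called lower than PBS there. No gene with at least 30 counts in BMP2+DM was without counts in PBS. Floors and bounds of this kind cover counting error only.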

How the data were processed

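RNA-seq of polyadenylated RNA gave 1 table of deposited counts per library, whole numbers of reads per gene symbol. Per the submitters' processing notes the tools were FastQC, Trimmomatic, STAR, HTSeq and DESeq2 with the mouse build mm10; neither versions nor the strand setting were given there. Lines that name no gene took up 53.8% to 54.2% of the reads in each table and entered no library size or test. Most were reads in no annotated feature, 49.7% to 50.1% of each table. Of 900 tested genes annotated as antisense, 23 were called higher and 74 lower in BMP2+DM than in PBS. Whether these calls reflect reads of the gene on the other strand was not tested. The 10106667 to 14366042 gene counts per library in BMP2+DM and PBS set the precision at low levels.

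Libraries were grouped by their treatment labels. All 6 were fitted together with edgeR 4.0.16 (R 4.3.3, limma 3.58.1) on the deposited counts: group means, TMM factors, filterByExpr with a minimum count of 10, the quasi-likelihood F test and Benjamini-Hochberg adjustment over all 14378 tested genes at 0.05. Of 32245 symbols, 11888 had no count and 5979 did not pass the filter. Standard errors are the log2 difference divided by the square root of F. CPM use TMM-scaled library sizes. Exon overlaps and positions came from GENCODE annotation matched by symbol (97.3% of symbols) and promoters from RefSeq, GRCm38.p6. The fit was tested on simulated data. Genes were named as the 12 largest rises and falls at a mean log2 CPM of at least 2 with no overlap between groups, up to 5 called members per list with the smallest p, a fixed panel, and members on which a count turns. Members, lists and tests were chosen with earlier results of these data known. The main fit did not pair libraries by replicate number, since the labels do not say whether the numbers pair them. The 12 alternatives included RLE factors, no filter, DESeq2 1.42.0, a replicate block, a minimum fold of 1.5, and each PBS or BMP2+DM library left out. They were run for BMP2+DM against PBS only, so comparisons with BMP2 alone were not checked in this way. Some list members that enter the counts are not reported by name here.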

Additional observations from a re-analysis of the deposited data

How the results depend on the processing

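With 2 libraries a group and 3 residual degrees of freedom in the 6-library fit, the number of calls depends on each library. Leaving out each PBS or BMP2+DM library in turn gave 742 to 957 genes higher and 1085 to 1318 lower, against 1349 and 1658. A minimum fold of 1.5 left 95 higher and 329 lower, so the calls higher made up 22.4% in place of 44.9% of all calls, and the fit without both high-repeat libraries, an alternative chosen after seeing the data, left 533 and 855. DESeq2 called 975 higher and 1295 lower. The sign turned for the ribosomal-repeat models: leaving out 1 library gave log2 differences from -4.07 to 0.113 for Gm42418 and from -4.26 to 0.0344 for AY036118, the upper value in each case without PBS replicate 1, and leaving out both high-repeat libraries gave 0.1128 and 0.0341. The cause was not tested. No other called gene changed sign under the 12 alternatives. The labels do not say whether replicate numbers pair the libraries. Same-numbered libraries deviated together with correlations of 0.0286, -0.0287 and -0.00216 over 11904 genes, the ribosomal-repeat models left out. Both high-repeat libraries were replicate 1 of their group, and low correlations over the other genes cannot exclude pairing. With a replicate block 1327 genes were higher and 1633 lower.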
